A study of Mus musculus with 4 samples.

Results

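Hox genes encode homeodomain transcription factors that give cells of the embryo their position along the head-to-tail axis. In mice they stand in 4 clusters, HoxA to HoxD, in which low-numbered (anterior) genes are switched on earlier and nearer the head than high-numbered (posterior) genes. In the developing heart anterior genes such as Hoxb1 and Hoxa3 are known for their retinoic acid-responsive use in progenitors of the outflow tract and in neural crest, and Polycomb and trithorax proteins hold whole stretches of a cluster off or on. The 39 protein-coding genes of mouse RefSeq GRCm38 named Hoxa, Hoxb, Hoxc or Hoxd with a number were taken, of 21887 protein-coding genes in all, and the measurement was whether an ATAC-seq peak lay in or near them. ATAC-seq marks open chromatin by the places where a transposase can insert. A peak belonged to a cluster if its summit lay between the outer ends of its first and last Hox gene or within 10 kb of either end.

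Both groups were newborn (P0) mice, WT or overexpressing miR-187. In the overexpressing mice mmu-miR-187 was knocked in at Rosa26 on a C57BL/6J background under the Tek (Tie2) promoter, which acts in endothelial and some blood cells. The labels do not give the genotype, and the study shows ATAC-seq of mice named KI/KI, with the knockin on both alleles. The labels name heart tissue, the study's methods describe endothelial cells captured with beads against CD31, and each of the 4 libraries (2 WT, 2 miR-187) was made from 50000 cells. The labels do not say how many animals a library came from, so the spread between libraries may be technical.

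The lists held 9452 peaks (WT replicate 1), 12298 (WT replicate 2), 7496 (miR-187 replicate 1) and 1483 (miR-187 replicate 2), and where 4 values follow without a library's name they stand in this order. The background read density inferred from the peak values was 1751, 5227, 2016 and 1032 reads per Mb, so WT replicate 2 was the deepest and miR-187 replicate 2 the shallowest, and where the background was lowest a summit needed 4, 7, 5 and 4 reads to be listed. A gene or window without a peak is therefore one where none was detectable at this depth. Of 18 endothelial marker genes, 3, 5, 2 and 1 had a boundary peak, which is a summit within 1 kb of either end of the gene (Cdh5 in 3 libraries, Kdr and Tek in 2; the defining markers Pecam1 and Vwf in none), against 2, 0, 0 and 0 of 12 cardiomyocyte markers (Myl2 and Tnni1), 2, 4, 1 and 0 of 8 fibroblast markers, and 0 of 6 smooth muscle and pericyte and 0 of 6 blood and immune markers in every library. The endothelial shares were 16.7%, 27.8%, 11.1% and 5.56%, against 21.0%, 29.9%, 19.4% and 3.07% of all protein-coding genes, so they were below that background in 3 libraries and say little about the cell type.

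Hox clusters were nearly free of peaks. Over the 4 lists only 4 summits fell in the Hox intervals, 3 in WT replicate 2 and 1 in miR-187 replicate 1, and none in WT replicate 1 or miR-187 replicate 2. HoxA held 3 of them and HoxB 1, whereas HoxC and HoxD had 0 in every library. No Hox region was found in more than 1 library. Over the whole genome 67.6% of 20919 regions (overlapping peaks of the 4 lists merged) were found in 1 list only.

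The intervals themselves are dense in genes (coordinates are those of mm10, the primary GRCm38 assembly). HoxA (chromosome 6, 106 kb) holds 11 Hox genes, HoxB (chr11:96194316-96368254, 174 kb) 10, HoxC (chr15:102921131-103036856, 116 kb) 9, and HoxD (chr2:74668225-74765142, 96.9 kb) 9. HoxA has its anterior end at the low coordinate and the other clusters at the high coordinate. The 10 kb beside HoxD also take in Evx2, an even-skipped homeobox gene. The intervals further hold 27 lncRNA genes, among them Hotair, Hottip and Hotairm1, and 6 miRNA genes of the miR-10, miR-196 and miR-615 families. None of these noncoding genes had a boundary peak in any library, against 13.5% of 12727 lncRNA genes and 7.65% of 1228 miRNA genes of the genome in some library. For so few miRNA genes 0 is near that background.

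**Figure D1:**
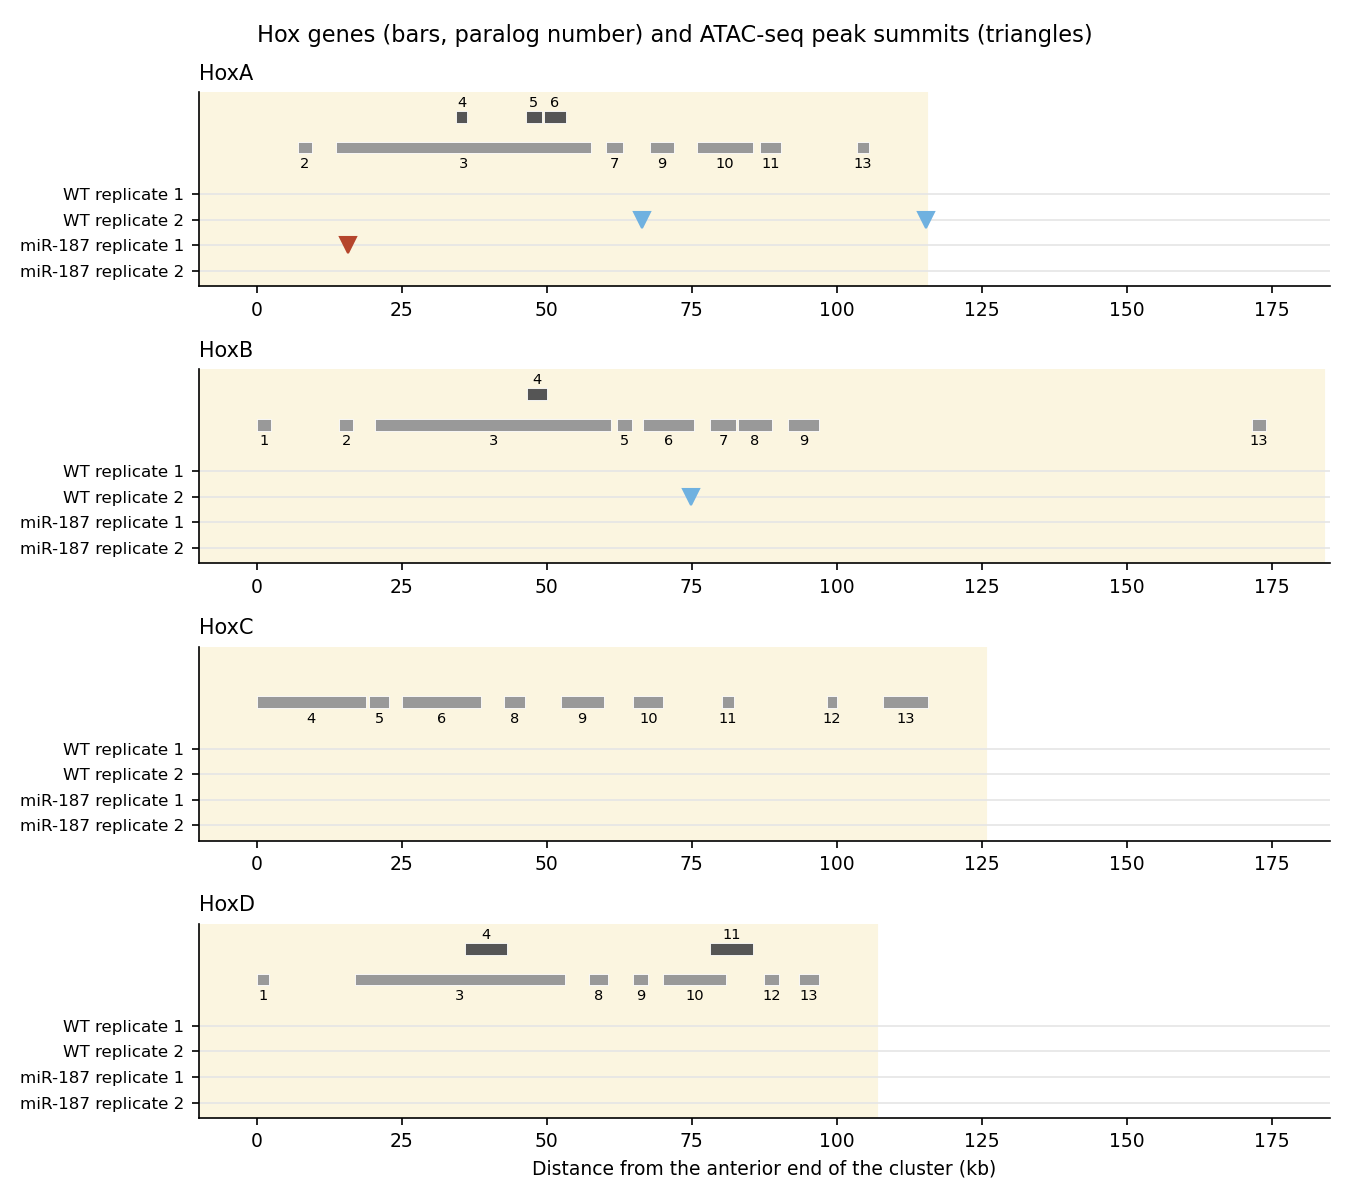
Position of Hox genes (bars with paralog number, upper row for genes inside or overlapping a longer one) and of every peak summit (triangles) along HoxA, HoxB, HoxC and HoxD, in kb from the anterior end; shading marks the span with 10 kb on each side and each line is 1 library. WT replicate 2 has 2 summits in HoxA and 1 in HoxB, miR-187 replicate 1 has 1 in HoxA, and HoxC and HoxD have none.

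The strongest Hox peak lay in HoxA of WT replicate 2 (chr6:52221640-52221975), between genes. Its summit was 3205 bp from Hoxa7 and 1319 bp from Hoxa9, and had 21 reads over a local background of 1.82, a fold enrichment (reads plus 1 over local background plus 1, as the peak caller's values imply) of 7.80 and a −log10 q of 11.27, where q is the p-value adjusted over the list. By q it ranked at the 95.1 percentile of its own list. Hoxa7 and Hoxa9 pattern the trunk skeleton, and Hoxa9 also acts in blood stem cells. WT replicate 1 and both miR-187 libraries had no peak there.

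The other 3 Hox peaks ranked lower in their lists. One in WT replicate 2 (chr6:52270551-52270855) lay 9792 bp beyond Hoxa13, the most posterior HoxA gene, and 3069 bp from the lncRNA Hottip, with 12 reads over 1.50, a fold enrichment of 5.20 and a rank at the 47.0 percentile. Another in WT replicate 2 (chr11:96293252-96293461) lay inside Hoxb6 and the antisense gene Hoxb5os, 593 bp from the end of Hoxb6 that faces Hoxb7, with 10 reads over 1.48, a fold enrichment of 4.44 and a rank at the 17.5 percentile. The only miR-187 peak (chr6:52170885-52171139, replicate 1) lay inside Hoxa3, a gene of the pharyngeal arches, 1995 bp from the end opposite its annotated start and 1603 bp from the lncRNA Hoxaas2. It had 7 reads over 0.52, a fold enrichment of 5.26 and a rank at the 32.9 percentile. Of these 4 peaks, the one between Hoxa7 and Hoxa9 was alone in the upper part of its list.

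Along the axis from anterior (0) to posterior (1) end of the span, the summits inside clusters stood at 0.15 (Hoxa3), 0.43 (Hoxb6) and 0.63 (Hoxa7 to Hoxa9). The median was 0.53 in WT replicate 2 and 0.149 in miR-187 replicate 1. The other 2 libraries had no summit inside a span, so positions could not be compared between groups.

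The design asks whether other stretches of the same length and at least as many protein-coding genes were as sparse. Tiling the chromosomes gave 62 such windows for HoxA (at least 11 genes), 279 for HoxB (at least 10), 201 for HoxC (at least 9) and 89 for HoxD (at least 10). If each cluster had held the mean number of peaks of its windows, the 4 clusters together would have had 9.73, 14.7, 8.80 and 1.12 peaks in the respective lists. The observed numbers were 0, 3, 1 and 0, which is 0, 0.204, 0.114 and 0 of the window value and 0.116 over the 4 lists (4 against 34.4). The size of this ratio depended on the windows and on WT replicate 2. It was 0.174 against windows with at least 5 genes and 0.620 against windows with any number of genes, where WT replicate 2 alone had 1.16 times the window value. Without WT replicate 2 the ratio to gene-dense windows was 0.0509. In miR-187 replicate 2 the window value itself was near 1, so that list could show little.

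Such sparse windows were a minority but not rare. Over the 4 lists the median window had 9.5 peaks at HoxA length, 10 at HoxB length and 9 at HoxC and HoxD length. The share of windows with no more peaks than the Hox cluster (the background for each cluster) was 25.8% for HoxA with 3 peaks, 19% for HoxB with 1, 15.9% for HoxC with 0 and 14.6% for HoxD with 0. In single lists, windows without a peak made up 21.0%, 21.0%, 30.6% and 80.6% of those of HoxA length. The shares were 21.5%, 19%, 24.4% and 74.2% at HoxB length, 19.4%, 18.4%, 24.9% and 77.6% at HoxC length, and 15.7%, 15.7%, 23.6% and 76.4% at HoxD length. Windows free of peaks in all lists together made up 19.4%, 15.8%, 15.9% and 14.6% of those of HoxA, HoxB, HoxC and HoxD length. No cluster therefore stood outside the range of its windows, and the ratio of 0.116 is for the 4 clusters together.

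**Figure D2:**
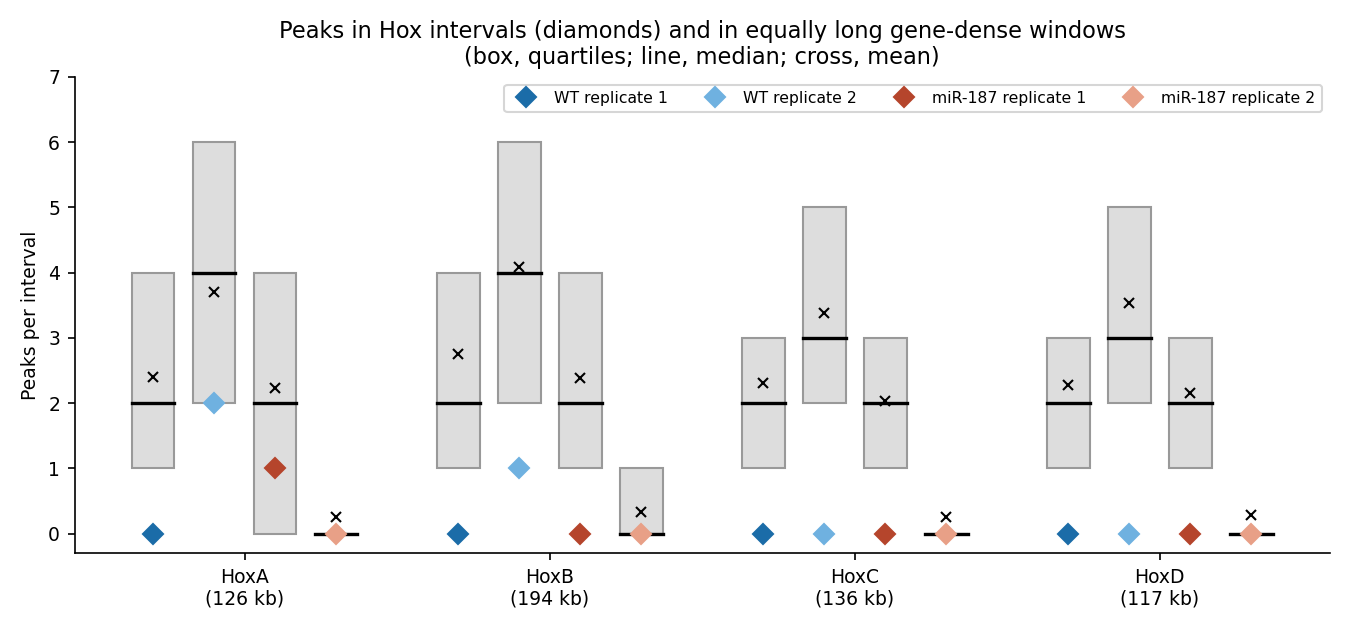
Peaks per interval (vertical axis) in each Hox cluster (diamonds, 1 per library) and in gene-dense windows of the same length (boxes, lower to upper quartile; line, median; cross, mean). Diamonds are at 0 apart from HoxA in WT replicate 2 (2 peaks) and miR-187 replicate 1 (1 peak) and HoxB in WT replicate 2 (1 peak), and medians of the windows are 2 to 4 in all libraries but miR-187 replicate 2, where they are 0.

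The windows without any peak were of a particular kind at some lengths. At HoxB length, 52.7% of the 516 protein-coding genes in windows free of peaks were olfactory, vomeronasal or trace amine receptor genes, against 3.36% of 2860 genes in windows with a peak. At HoxC length the shares were 28.8% and 2.36%. At HoxA and HoxD length they were 0.690% of 145 and 0.676% of 148 genes in windows free of peaks and 0 in the others. Keratin genes gave 32 of the 516 genes in peak-free windows and 43 of the 2860 in the others at HoxB length, and 26 of 337 and 15 of 1783 at HoxC length. At HoxA length they were 7 of 145 and 12 of 638, and at HoxD length 4 of 148 and 11 of 872. Chemoreceptor genes serve the olfactory and vomeronasal epithelium, and keratin genes the skin and other epithelia.

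Counted gene by gene, 38 of the 39 Hox genes had no boundary peak in any library. Hoxb6 had the only one, in WT replicate 2. The numbers were 0, 1, 0 and 0 of 39, against 21.0%, 29.9%, 19.4% and 3.07% of all protein-coding genes. Over all libraries 2.56% of Hox genes and 38.1% of protein-coding genes had a boundary peak at least once. Genes without any included Hoxa2, Hoxa3, Hoxa4, Hoxa5, Hoxa6, Hoxa7, Hoxa9, Hoxa10, Hoxa11 and Hoxa13 in HoxA, Hoxb1, Hoxb2, Hoxb3, Hoxb4, Hoxb5, Hoxb7, Hoxb8, Hoxb9 and Hoxb13 in HoxB, and all 9 genes of HoxC (Hoxc4 to Hoxc13) and of HoxD (Hoxd1 to Hoxd13).

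Inside the gene bodies the picture was like that at the ends. A summit lay within a Hox gene in WT replicate 2 (Hoxb6) and in miR-187 replicate 1 (Hoxa3) and in no other case, against 21.4%, 25.9%, 17.4% and 3.74% of all protein-coding genes in the 4 lists. Hoxa3 spans 44009 bp in this annotation and contains Hoxa4, Hoxa5 and Hoxa6.

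The starts of Hox genes were looked at on their own because promoters rich in CpG carried a peak more often than others in these lists. Promoter sequences (RefSeq, GRCm38.p6) were at hand for 24 start sites of 22 of the 39 genes, and CpG dinucleotides were counted in the 250 bases before each. Of these start sites 10 were in HoxA, 3 in HoxB, 1 in HoxC and 10 in HoxD, so HoxB and HoxC were hardly covered. Hoxb6, the only Hox gene with a boundary peak, was not among the 22 genes, so its start could not be scanned. Hox promoters held 2 to 35 CpG (median 12.5), against a median of 10 over 21263 promoters of 17492 genes. At least 15 CpG were found in 9 of the 24 Hox promoters (37.5%) and in 36.7% of all promoters, so Hox promoters were rich in CpG about as often as others. A summit lay within 1 kb of the start in 21.3%, 30.8%, 20.1% and 3.08% of all promoters in the 4 lists and in 0 of the 24 Hox promoters in each. Among promoters with at least 15 CpG these shares were 37.7%, 54.4%, 36.4% and 5.45% of 7794, and 0 of 9 for Hox genes, where the same shares would give 3.39, 4.89, 3.27 and 0.491 promoters. This comparison was chosen after the small number of Hox peaks had been seen.

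**Figure D3:**
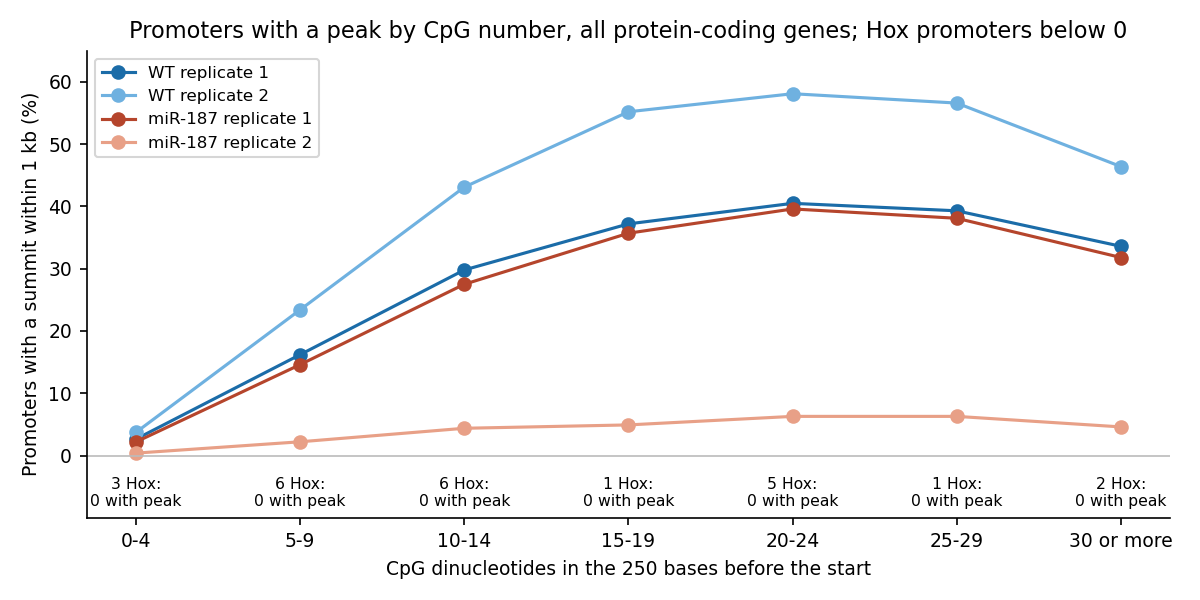
Share of promoters with a summit within 1 kb of the start (vertical axis, %) by number of CpG dinucleotides in the 250 bases before it (horizontal axis), over all protein-coding genes and for each library (lines); text below 0 gives the Hox promoters in each class. In WT replicate 2 the share goes from 3.72% at 0 to 4 CpG to 58.1% at 20 to 24. None of the Hox promoters at hand has a peak in any class, and Hoxb6 is not among them.

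Of the Hox promoters, 3 rich in CpG and 1 with few are printed to show what was scanned, with each CG in capitals, 5′ to 3′ and ending at the base before the start (RefSeq, GRCm38.p6). Hoxa13 (minus strand, chr6:52260881-52261130) and Hoxd13 (plus strand, chr2:74667975-74668224), which pattern digits and the urogenital tract, have the most CpG of the Hox set with 35 and 31. Hoxa5 (minus strand, chr6:52204588-52204837), which acts in lung and thoracic skeleton, has 28 and starts inside the longest form of Hoxa3. Hoxa7 (minus strand, chr6:52218574-52218823) has 7 and its start, 3.21 kb away, is the nearest to the strongest Hox peak. Wdr5 (plus strand, chr2:27514897-27515146), a subunit of the complexes that methylate histone H3 at Hox genes, has 12 and is the contrast, since a peak overlapped it in WT replicate 1 (chr2:27514801-27515036, fold enrichment 4.27) and in miR-187 replicate 2 (chr2:27514978-27515285, fold enrichment 6.58). No peak lay within 1 kb of the 4 Hox starts in any library. These promoters were picked after their values were seen.
Hoxa13: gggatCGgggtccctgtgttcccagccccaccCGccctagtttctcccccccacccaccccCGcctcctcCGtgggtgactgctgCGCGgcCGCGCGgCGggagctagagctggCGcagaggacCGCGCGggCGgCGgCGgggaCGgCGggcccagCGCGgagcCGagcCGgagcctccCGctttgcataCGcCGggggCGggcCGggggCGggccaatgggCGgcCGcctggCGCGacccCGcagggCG
Hoxd13: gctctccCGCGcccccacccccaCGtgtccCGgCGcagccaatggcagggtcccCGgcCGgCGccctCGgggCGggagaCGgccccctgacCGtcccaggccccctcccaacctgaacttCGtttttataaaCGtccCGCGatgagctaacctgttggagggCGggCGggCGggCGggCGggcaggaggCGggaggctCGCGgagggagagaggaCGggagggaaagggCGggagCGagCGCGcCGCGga
Hoxa5: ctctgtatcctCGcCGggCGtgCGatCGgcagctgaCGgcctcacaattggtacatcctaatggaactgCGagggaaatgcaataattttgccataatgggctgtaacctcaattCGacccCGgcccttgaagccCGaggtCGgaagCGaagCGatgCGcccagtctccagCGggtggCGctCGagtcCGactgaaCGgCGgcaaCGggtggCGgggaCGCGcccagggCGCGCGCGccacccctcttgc
Hoxa7: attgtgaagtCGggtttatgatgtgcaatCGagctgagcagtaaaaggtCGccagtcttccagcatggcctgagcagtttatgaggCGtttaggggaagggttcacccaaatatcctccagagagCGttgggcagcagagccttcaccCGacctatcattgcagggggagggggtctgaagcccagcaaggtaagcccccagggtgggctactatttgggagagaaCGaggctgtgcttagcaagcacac
Wdr5: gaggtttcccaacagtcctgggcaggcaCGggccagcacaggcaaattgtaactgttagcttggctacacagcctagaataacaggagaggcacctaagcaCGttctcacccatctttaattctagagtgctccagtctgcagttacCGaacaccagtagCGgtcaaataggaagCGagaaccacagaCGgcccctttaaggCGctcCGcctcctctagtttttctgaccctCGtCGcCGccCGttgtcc

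The runs of capitals differ plainly. In Hoxa13 and Hoxd13 they recur along the whole stretch, in Hoxa7 they are scattered, and in Wdr5, which had peaks, they gather near the start. The number of CpG in Wdr5 was below that of Hoxa13, Hoxd13 and Hoxa5, none of which had a peak.

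Hox genes were farther from their nearest summit than other genes in 3 libraries. The median Hox gene was 143, 72.3 and 112 kb from a summit in the first 3 lists, against 28.5, 13.8 and 40.7 kb for all protein-coding genes. In miR-187 replicate 2 the order was the other way, 264 kb against 385 kb. That list holds 1483 peaks. In WT replicate 2 the median was 13.1 kb for HoxA, 15.3 kb for HoxB, 204 kb for HoxC and 119 kb for HoxD genes. In miR-187 replicate 1 the medians of HoxA to HoxD were 33.8, 110, 222 and 125 kb, and in WT replicate 1 they were 93.1, 233, 231 and 119 kb. HoxA genes went the other way in WT replicate 2 (13.1 against 13.8 kb) and miR-187 replicate 1 (33.8 against 40.7 kb). Genes of a cluster often share a nearest summit, so they are not separate observations. HoxC thus had the longest median of the 4 clusters in WT replicate 2 and miR-187 replicate 1 and was close to HoxB in WT replicate 1, but in miR-187 replicate 2 it had the shortest, with 347, 233, 227 and 265 kb for HoxA to HoxD.

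**Figure D4:**
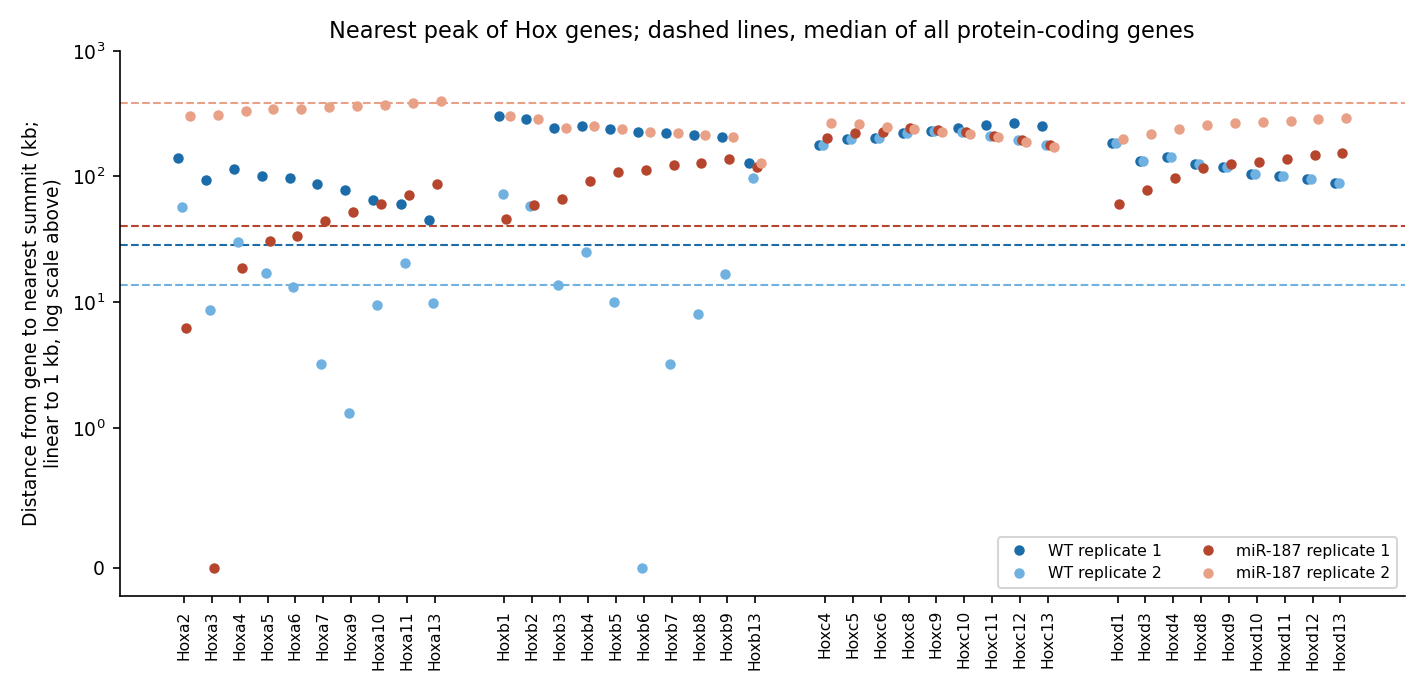
Distance in kb from Hox genes (horizontal axis, anterior to posterior within a cluster) to the nearest summit of each library (points; linear to 1 kb and log scale above), with the median of all protein-coding genes as a dashed line of the same colour. HoxC and HoxD genes lie above the dashed line in WT replicates 1 and 2 and miR-187 replicate 1 and below it in miR-187 replicate 2.

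Peaks were densest beyond 50 kb from the clusters. Within the 4 spans there were 0, 4.06, 2.03 and 0 peaks per Mb, and in the first 50 kb on either side 2.50, 2.50, 2.50 and 0. From 50 to 250 kb the density was 5.62, 5.62, 5.62 and 2.50 peaks per Mb, and from 250 to 1000 kb 7.83, 11.5, 6.33 and 2 peaks per Mb. The genome as a whole had 3.47, 4.52, 2.75 and 0.545. Densities beyond 50 kb were thus above the genome value in every library. In the spans and the first 50 kb they were lower than it, but some were close. In WT replicate 2 the spans had 4.06 against 4.52, and in miR-187 replicate 1 the first 50 kb had 2.50 against 2.75. Each value rests on 0 to 2 peaks in the spans and on 0 or 1 in the first 50 kb. Counts this small do not show a deficit relative to the genome, least of all in miR-187 replicate 2 with its 0.545 peaks per Mb.

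Of the 8 protein-coding genes next to the clusters, 3 had a boundary peak in some library, which is near the 38.1% of all protein-coding genes. Skap2, an adaptor protein gene beyond the anterior end of HoxA, had a summit at 343, 38 and 10 bp from its end in the first 3 lists and none within 1 kb in miR-187 replicate 2. Calcoco1, a coactivator gene on the posterior side of HoxC, had one in WT replicate 2 and both miR-187 libraries. Mtx2, a mitochondrial import gene beside Hoxd1, had one in miR-187 replicate 1, 131 bp from its end with a fold enrichment of 6.67. Evx1, Evx2, Ttll6, Skap1 and Smug1 had none in any library. Farther out, Lnpk, an endoplasmic reticulum gene, had a boundary peak 89.2 kb beyond Hoxd13 in both WT libraries (fold enrichment 4.55 and 7.69) and in neither miR-187 library, and Ube2z, beyond Hoxb13, had one in all 4. The pattern of Lnpk is not particular to it, since 1803 of the 20919 regions of the genome were in both WT lists and neither miR-187 list, and Atp5g2, Copz2, Nfe2l2, Pcbp2 and Scrn2 within 1 Mb of a cluster had it too.

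Outside the Hox intervals, 104 protein-coding genes lay within 1 Mb of a cluster. They had boundary peaks in 33, 41, 30 and 7 cases (31.7%, 39.4%, 28.8% and 6.73%), and 53 of them had one in some library. Of these genes, Rarg and Evx1 are also in the cofactor and upstream list. Evx2, in that list too, lies inside the HoxD interval and is not among the 104. The shares were above those of all protein-coding genes in every library. Hox genes and their neighbours thus stood on opposite sides of the genome value in each of the 4 libraries. In miR-187 replicate 2 that value was only 3.07%, and 0 of 39 Hox genes is near it.

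Genes that work with Hox genes were listed by role, and 9 of 26 had a boundary peak in some library (34.6%, against 38.1% of all genes). In each library there were 5, 4, 3 and 1, or 19.2%, 15.4%, 11.5% and 3.85%. Among the TALE homeodomain proteins, which bind DNA together with Hox proteins, Pbx3 had a peak in WT replicate 2 (16 reads, fold enrichment 6.20) and miR-187 replicate 1 (12 reads, 6.91-fold), as did Pknox1 (16 reads, 4.83-fold and 13 reads, 6.60-fold). Pknox2 had one in WT replicates 1 and 2 (9 reads, 4.81-fold and 12 reads, 3.44-fold). Meis1, Meis2, Meis3, Pbx2 and Pbx4 had none.

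On the trithorax side, which keeps Hox genes active, Kmt2a had a peak in WT replicate 2 (12 reads, 4.55-fold), Men1 in miR-187 replicate 1 (11 reads, 5.50-fold) and Wdr5 in the libraries named above, while Ash2l had none. Of the retinoic acid genes, Aldh1a2, which makes the ligand, had a peak in WT replicate 1 (7 reads, 5.13-fold), and so did the receptor gene Rarg (6 reads, 4.17-fold). Rara, Rarb and the retinoic acid-degrading Cyp26a1 had no boundary peak, although a summit lay within 1 kb of an internal start of Rara in WT replicate 2 and of Rarb in miR-187 replicate 1. An internal start of Rarg likewise had a summit within 1 kb in WT replicates 1 and 2 and miR-187 replicate 1. Cdx1, Cdx2 and Cdx4, which act upstream of Hox genes, and the ParaHox genes Gsx1, Gsx2 and Pdx1 had none either.

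Homeobox genes elsewhere in the genome also had few peaks. Of 82 listed, 4, 3, 2 and 1 had a boundary peak (4.88%, 3.66%, 2.44% and 1.22%), and 6 had one in some library (7.32%), against 21.0%, 29.9%, 19.4% and 3.07% of all protein-coding genes in the 4 lists and 38.1% in some library. Hhex, a gene of early endothelial and liver development, had one in WT replicates 1 and 2 and miR-187 replicate 1. Msx1 and Pitx3 had one in 2 libraries, and Meox2, a vascular homeobox gene, Pitx1 and Barhl1 in 1. This list was drawn up after the Hox counts were seen.

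**Figure D5:**
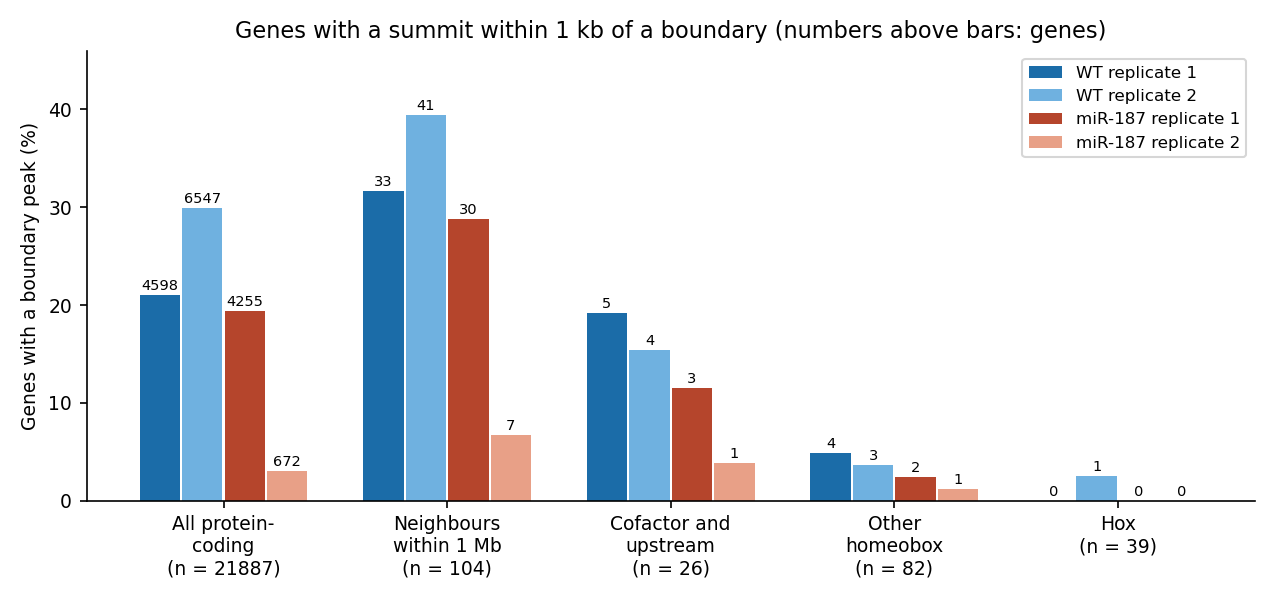
Share of genes with a summit within 1 kb of either end (vertical axis, %; bars, 1 per library; numbers above bars, genes) for all protein-coding genes, neighbours within 1 Mb of a Hox cluster, cofactor and upstream genes, other homeobox genes and Hox genes. Hox genes are at 0 except for 1 gene in WT replicate 2, and neighbours are above all protein-coding genes in each library.

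No difference between WT and miR-187 mice could be shown for the clusters. Hox peaks numbered 1.50 ± 2.12 (SD, n = 2) in WT and 0.500 ± 0.707 in miR-187 libraries, a difference of −1 (2-sided exact permutation test, p = 1). With 2 libraries a group this test cannot give a p below 0.333. The difference was −0.500 for HoxA and for HoxB and 0 for HoxC and HoxD (adjusted p = 1 for each, exact permutation test, 4 clusters). Per 1000 listed peaks the counts were 0 and 0.244 in WT and 0.133 and 0 in miR-187 libraries, and the groups overlapped. The WT count came from the deepest library alone, and without WT replicate 2 the difference was 0.500. With reads thinned to the lowest background density, an average of 0.718 peaks would be left in WT replicate 2 (of 3) and 0.526 in miR-187 replicate 1 (of 1).

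Over the 4 lists, regions called in each WT library and in no miR-187 library numbered 1803, against 33 with the reverse pattern. The reverse pattern needs a peak in miR-187 replicate 2, which lists 1483 peaks, against 9452 and 12298 in the WT lists. Depth and group therefore cannot be told apart in these numbers. No region of either pattern lay in a Hox interval, which follows from no Hox region being in more than 1 list and is no result about the clusters. Boundary peaks of the cofactor and upstream list numbered 4.50 ± 0.707 (SD, n = 2) in WT and 2 ± 1.41 in miR-187 libraries (difference −2.50, exact permutation p = 0.333, the smallest possible). The groups did not overlap, with 5 and 4 genes in WT and 3 and 1 in miR-187, and neither did they over all protein-coding genes (21.0% and 29.9% in WT, 19.4% and 3.07% in miR-187), so the pattern is not particular to this list. When the same number of strongest peaks was taken from every list the difference was 1.50, in the other direction.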

How the data were processed

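ATAC-seq was done on 2 WT and 2 miR-187 newborn mouse heart samples, and the deposited narrowPeak lists (10 columns, 1 list per sample, not pooled) were used. Per the labels' processing notes the build was mm10 and tools included Bowtie2 2.2.6, SAMtools 1.10, deepTools 3.3.2, MACS2 2.2.7.1 and HOMER 4.11, with no settings. The authors' peak caller gave each peak a start, end and summit, a fold enrichment (a ratio to local background), a −log10 p-value, a −log10 q-value and a whole-number score, and the lists hold no read totals.

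Summits on chromosomes 1 to 19, X and Y were placed on RefSeq genes (GRCm38.p6, the coordinates of mm10), and coordinates are 1-based. The 6, 20, 6 and 0 peaks on other scaffolds were left out. The members and lists were chosen with earlier results of these data known. Reads at a summit and background density were solved from fold enrichment and −log10 p within 0.0005, for reads extended to 200 bp, and the solver was tested on simulated data. Windows were a fixed tiling of each chromosome at the cluster's length, with at least as many protein-coding genes, and are a description with no p. The genes named are Hox genes, the nearest gene on each side of a cluster and the cofactor and upstream genes with a boundary peak; others were chosen after their values were seen. Some members and listed genes enter the counts but are not reported here by name. Group means were compared by an exact permutation test, 2-sided, with 6 ways to assign the libraries. The replicate numbers did not pair libraries (below). Alternatives were a −log10 q of at least 5, as many strongest peaks per list as the shortest holds, other flanks, distances and windows, thinning to the lowest depth, each library left out in turn, and a replicate block. Scripts ran in Python 3.11.15 with pandas 2.3.3, numpy 2.4.6, matplotlib 3.10.9 and scipy 1.17.1.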

Additional observations from a re-analysis of the deposited data

How the results depend on the processing

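All values here are differences of miR-187 minus WT, and both the number of libraries and their depth limit them: with 2 libraries a group and 0 to 3 Hox peaks a library, any difference rests on single peaks, and the absence of a peak says little in a list of 1483. The alternatives gave 99 values, of which 78 kept their direction, or stayed at 0, and 7 changed direction. The other 14 were differences that went to 0, except the number of Hox regions without WT replicate 1. No value passed a threshold, which the design cannot reach. Keeping the direction did not mean keeping the size, since the difference per 1000 listed peaks was −0.337 with equally many strongest peaks per list, and that in relative density was −0.229 there and −0.263 against all windows. The differences for HoxC and HoxD were 0 under each alternative run. With −log10 q of at least 5, the difference was 0 for HoxB peaks, for Hox genes with a boundary peak and for the cofactor and upstream genes. With equally many strongest peaks per list it was 0 for HoxB and for Hox boundary genes and 1.50 for the cofactor and upstream genes. It was 0 for HoxA without a flank, 0 for HoxB with a 50 kb flank, 0 for both gene lists within 250 bp and 0 for Hox genes at the start side only. Hoxb6, which had the only Hox boundary peak, had no start site at hand, so the start-side value may miss it. The cause of these moves was not tested. Thinned to the lowest background density, 0.718 peaks would be left in WT replicate 2 and 0.526 in miR-187 replicate 1, a difference of −0.0957.

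Leaving out each library in turn gave −2.50 to 0.500 for all Hox peaks, −1.50 to 0.500 for HoxA, −1 to 0 for HoxB, −0.177 to 0.0667 per 1000 listed peaks, −0.147 to 0.0568 for the density relative to gene-dense windows, −1 to 0 for Hox boundary genes, −3.50 to −1.50 for the cofactor and upstream genes, and 0 to 3 Hox regions found in WT and not in miR-187 lists. Without WT replicate 2 the differences for all Hox peaks (0.500), HoxA (0.500), per 1000 peaks (0.0667) and relative density (0.0568) were above 0, as were those per 1000 peaks (0.0114) and for relative density (0.0118) without miR-187 replicate 2. Without WT replicate 1 the number of Hox regions was 3. The difference in relative position (−0.381, 1 library a side) had no value without either library that holds a summit, and leaving out the others cannot move it.

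The replicate numbers are only a number here, since deviations of same-numbered libraries from their group means had a correlation of −0.025 over 20919 regions. The replicate block gave the same differences, −1 for all Hox peaks (sign-flip p = 1, exact) and −2.50 for the cofactor and upstream genes (exact p = 0.500, the smallest that test allows), and moved no count.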
